A study of Mus musculus with 18 samples.

Results

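Motile cilium genes were described here as 70 genes out of 18193 measured on a mouse expression array. They were taken by symbol: every gene named Dnah, Dnaaf, Cfap, Rsph, Tekt or Ift with a number, and the genes Foxj1, Rfx2, Rfx3, Ccno and Tppp3. The set held 10 Dnah genes, 5 Dnaaf, 25 Cfap, 6 Rsph, 5 Tekt and 14 Ift genes, 4 regulators and Tppp3. Mcidas and genes under a numbered Dnai symbol were not analysed here. Where several probe sets carried only that symbol, the brightest on average over the 18 arrays was used, and all levels are log2 values on the robust multi-array average (RMA) scale, so a difference of 1 is a doubling. The members had 111 such probe sets, 28 members had several and 42 had only the probe set used.

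The arrays came from B6C3F1/N mice, a hybrid used in cancer bioassays, in 3 groups of 6. Spontaneous tumours are lung tumours labelled spontaneous, cobalt tumours are lung tumours of mice exposed to cobalt metal particulate aerosol, and control lung is the lung of vehicle controls. The study used mice of both sexes, 5 to 6 weeks old when it began, which inhaled air with 1.25 mg/m3, 2.5 mg/m3 or 5 mg/m3 of cobalt, or 0 mg/m3 as controls. Exposure lasted at most 105 weeks, on 5 days of each week and for 6 hours on each such day. The dose, sex and age behind a single sample were not among the labels used. The labels describe tumours dissected out of the lung and do not say that each array is a separate animal, so a p-value here reflects the spread between arrays, which may be technical. Array medians ran between 6.32 and 6.45, and the number of arrays limits the precision.

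Some arrays stood apart. Control 6 is a control by its title, source and group, while its free-text description names a spontaneous tumour; it was kept as a control. Cobalt tumour 6 lay nearest to control lung: its mean log2 difference from the controls over the 70 members was -0.34, against -1.06 to -0.87 in the other 5 cobalt tumours and -1.14 to -0.72 in the spontaneous tumours. Xist, an RNA of female cells, was at 12.1 or above in spontaneous tumours 4 and 6, cobalt tumours 2, 3, 5 and 6 and every control lung; the remaining 6 tumours had 5.95 to 6.82. Calls that were lost in the arrays with high Xist are given beside the genes concerned. That setting has fewer tumours and calls fewer genes. Of all genes, 12.6% were lower in spontaneous tumours there, against 18.2% in all arrays, and 15.6% against 19.3% in cobalt tumours. A lost call is therefore not read as an effect of sex, which was not tested.

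Motile cilia are beating, hair-like extensions of the cell built on a ring of doublet microtubules, the axoneme. Dynein arms on the doublets slide them past each other, radial spokes and a central pair set the beat, and intraflagellar transport (IFT) carries the parts to the tip. In the lung they stand in large numbers on the ciliated cells of the conducting airways and move mucus. Most other cells can make a primary cilium, which uses IFT but has no dynein arms or radial spokes. Many axoneme genes also serve the sperm tail.

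Most genes of the beating apparatus were lower in both kinds of tumour than in control lung. By contrast, 10 of 14 IFT genes in spontaneous tumours and 7 of 14 in cobalt tumours did not pass the test, and 1 rose in each. The IFT count called lower was near the share of all genes in spontaneous tumours and above it in cobalt tumours. With an adjusted p of at most 0.05 as the threshold (limma, Benjamini-Hochberg over all genes), 43 of the 70 members fell in spontaneous tumours and 1 rose, against 34.6% of all genes called in that comparison, 18.2% lower and 16.4% higher. In cobalt tumours 45 members fell and 1 rose, against 34.0% of all genes called, 19.3% lower and 14.7% higher. The members' median log2 difference from control lung was -0.85 in spontaneous and -0.77 in cobalt tumours, and the median over all genes was -0.03 in each. The comparisons share their control lungs: 41 members were lower in both, Ccno and Cfap52 only in the spontaneous comparison, and Cfap20dc, Ift22, Ift74 and Ift88 only in the cobalt comparison. In tumour tissue, fewer ciliated cells and less of an RNA per cell cannot be told apart.

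All 6 spontaneous tumours lay below all 6 control lungs for 38 members, where 11.9% of all genes did so. All 6 cobalt tumours lay below all controls for 28 members, where 10.8% of all genes did so; without cobalt tumour 6 the count was 41 members, beside 16.6% of all genes. No member had all spontaneous tumours above all controls, as 9.21% of all genes had. Without control 6 the members called lower numbered 41 in spontaneous and 45 in cobalt tumours, where 17.1% and 18.3% of all genes were lower. In the 12 arrays with high Xist they numbered 40 in spontaneous and 44 in cobalt tumours, where 12.6% and 15.6% of all genes were lower.

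**Figure D1:**
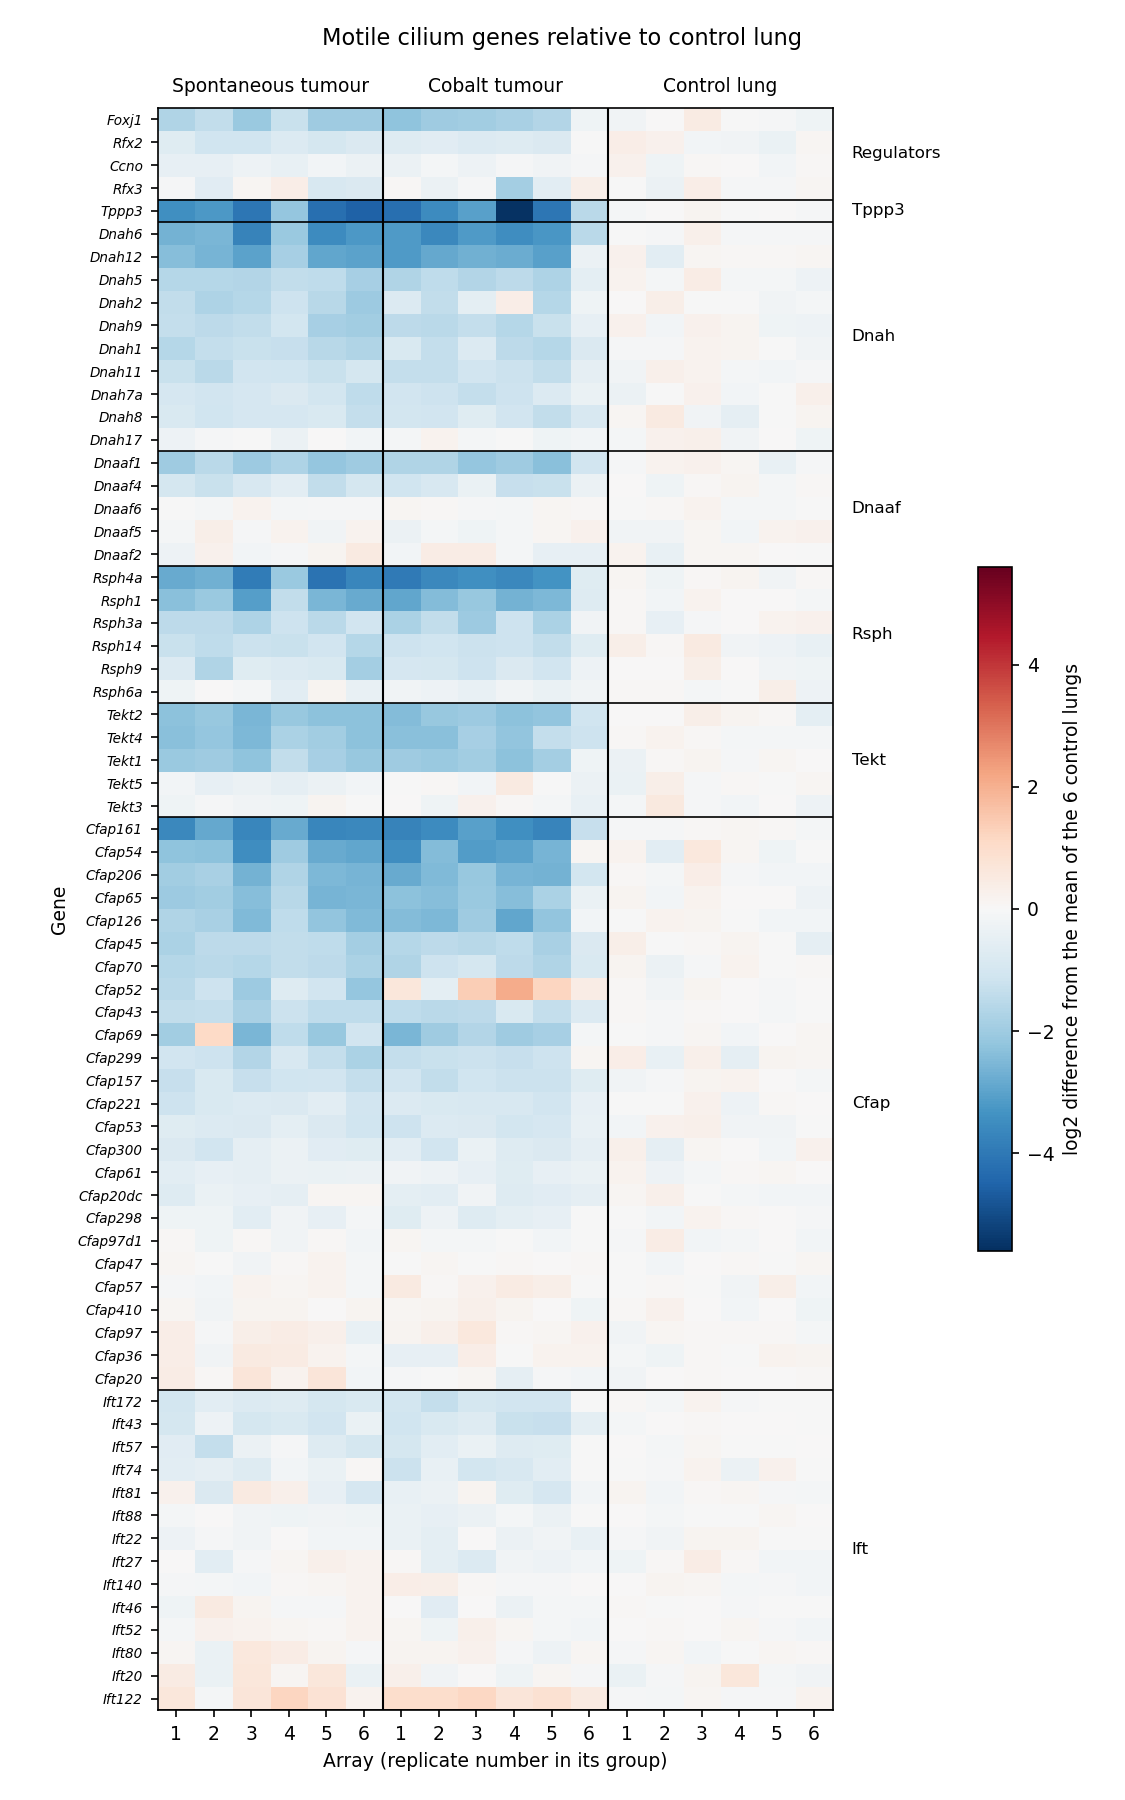
Each row is a member, each column an array (spontaneous tumours, cobalt tumours, control lungs, replicates 1 to 6), and the colour is the log2 RMA difference from the mean of the 6 control lungs. Blue rows make up most of the Dnah, Rsph, Tekt and Cfap blocks in all tumours except the paler cobalt tumour 6 (mean -0.34). Pale rows in these blocks include Dnah17, Rsph6a, Tekt3 and Tekt5. The Ift block is pale, with Ift122 red in most tumours.

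**Figure D2:**
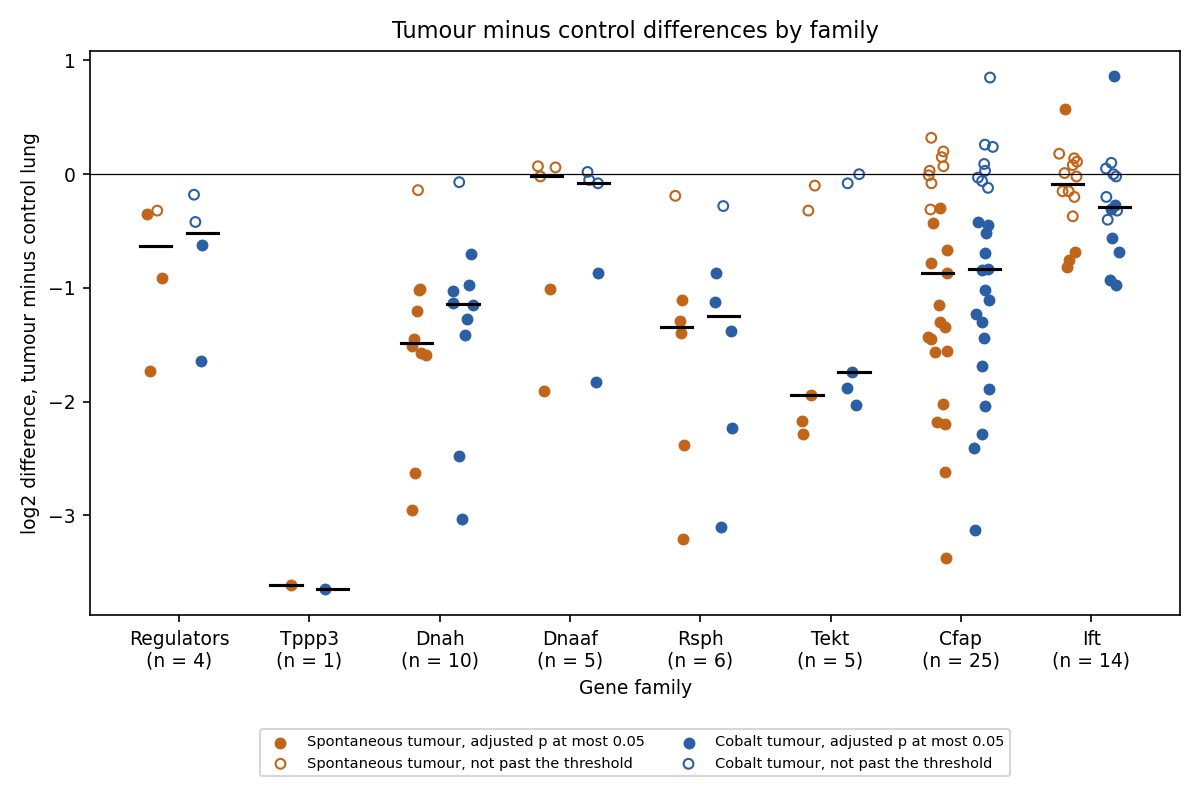
Each point is a member's log2 difference from control lung (y axis) in spontaneous (left, orange) and cobalt tumours (right, blue), by family, with n the number of members. Filled points passed the threshold, and black bars are medians, which lie at -1.48 and -1.14 for Dnah but at -0.08 and -0.29 for Ift.

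Among the regulators, Foxj1, the transcription factor that switches on the motile cilium programme, fell in both kinds of tumour. Foxj1 lay between 6.64 and 7.47 (median 6.87) in spontaneous tumours, between 6.46 and 8.48 (median 6.83) in cobalt tumours and between 8.49 and 9.19 (median 8.66) in control lungs. The groups did not overlap, but cobalt tumour 6, at 8.48, lay just under the lowest control; the other cobalt tumours reached at most 7.07. The log2 difference was -1.73 ± 0.26 (SE) in spontaneous tumours (adjusted p = 7.36e-05) and -1.64 ± 0.26 in cobalt tumours (adjusted p = 0.000125), the second being -1.92 without cobalt tumour 6.

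Rfx2 and Rfx3 are RFX factors, which bind the X-box, a paired element in front of many cilium genes. Rfx2 lay between 5.82 and 6.26 (median 6.05) in spontaneous tumours, between 6.12 and 6.91 (median 6.21) in cobalt tumours and between 6.58 and 7.30 (median 6.92) in control lungs. It fell in both, with a log2 difference of -0.91 ± 0.14 in spontaneous tumours (adjusted p = 0.000108) and of -0.62 ± 0.14 in cobalt tumours (adjusted p = 0.00297), where only cobalt tumour 6 reached into the controls. The other probe sets of Rfx2 gave smaller falls, between -0.41 and -0.22 in spontaneous and between -0.35 and -0.09 in cobalt tumours. Rfx3 did not pass the test: it lay between 6.07 and 7.36 in spontaneous tumours, between 5.06 and 7.30 in cobalt tumours and between 6.65 and 7.35 in control lungs, with log2 differences of -0.32 and -0.42 and a wide spread among tumours. Ccno, a cyclin-like protein needed to multiply centrioles in multiciliated cells, lay between 5.27 and 5.55 in spontaneous tumours, between 5.37 and 5.64 in cobalt tumours and between 5.49 and 5.94 in control lungs. Its fall passed in spontaneous tumours (log2 difference -0.35 ± 0.08, adjusted p = 0.00317) but not in cobalt tumours (-0.18, adjusted p = 0.11), which passed only without control 2 (-0.22, adjusted p = 0.0454).

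The start regions of the genes were searched for X-box letters. RefSeq windows from 250 bases before to 50 after the start (GRCm38.p6) were matched for 56 of the 70 members and for 27025 genes; Foxj1 and Tppp3 are not among the 56. Stretches before the start, without any base inside a gene of the RefSeq table, are shown for 5 members, 5′ to 3′ on the gene's strand. Capitals mark only exact matches to the X-box spellings given below. Lower-case letters beside a marked arm, as in Tekt2, Cfap45 and Ift57, may still complete a pair under a looser spelling or another gap. Where a gene had several windows, the one with the most matches was taken. Tekt2 (chr4:126325689-126325838, minus strand), Cfap45 (chr1:172520980-172521129, plus strand) and Rfx2 (chr17:56831009-56831158, minus strand) fell in both kinds of tumour, and in their stretches Tekt2 has 2 matches to an X-box arm and Cfap45 and Rfx2 have 1 each, with none to the paired spelling given below; the Rfx2 window holds that paired spelling after the start, outside the stretch shown; Ift57 (chr16:49699144-49699293, plus strand), an IFT gene that fell, has a match to the paired spelling; and Cfap52 (chr11:67965670-67965792, minus strand), which differed between the tumour groups, has no match in the stretch.
Tekt2: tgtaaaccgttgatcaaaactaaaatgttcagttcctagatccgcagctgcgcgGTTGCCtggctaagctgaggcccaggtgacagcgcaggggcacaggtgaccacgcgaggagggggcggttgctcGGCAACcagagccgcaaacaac
Cfap45: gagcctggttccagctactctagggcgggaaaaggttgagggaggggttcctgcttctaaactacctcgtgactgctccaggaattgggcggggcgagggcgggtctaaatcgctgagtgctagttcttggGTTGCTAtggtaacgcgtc
Rfx2: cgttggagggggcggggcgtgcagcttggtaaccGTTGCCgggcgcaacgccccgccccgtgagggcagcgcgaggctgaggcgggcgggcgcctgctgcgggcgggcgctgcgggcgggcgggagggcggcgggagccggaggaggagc
Ift57: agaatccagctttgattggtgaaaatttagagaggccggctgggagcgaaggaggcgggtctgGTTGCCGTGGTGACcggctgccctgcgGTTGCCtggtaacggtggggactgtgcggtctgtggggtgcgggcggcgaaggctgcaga
Cfap52: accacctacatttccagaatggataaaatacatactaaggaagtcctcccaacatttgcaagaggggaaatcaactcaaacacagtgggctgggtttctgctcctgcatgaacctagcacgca

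Searched on both strands, the arm GTTGCC stood in 21 of the 56 member windows (37.5%), against 14.1% of all genes' windows, and GTTGCTA in 17 (30.4%), against 4.28%. The longer GTTGCCA, which contains the first arm, stood in 10 (17.9%), against 5.02%. A paired form made of the arm GTNNCC, any 2 bases and the reverse complement of that arm, which can contain the first arm and reads the same on both strands, stood in 12 (21.4%), against 2.16%. With GTTNCC as the arm the pair stood in 3 (5.36%), against 0.529%. GTAAACA, a core that forkhead factors such as Foxj1 bind, stood in 4 (7.14%), against 4.05%. The 6 spellings were chosen with some matches in view, further spellings of the pair that were tried are not reported, and the letters describe the windows only: among the 31 members with a window that fell in both comparisons, 11 (35.5%) held GTTGCC, beside 37.5% over all members with a window.

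Tppp3, a microtubule-binding protein that is abundant in ciliated airway cells, had the largest fall of the members in both comparisons. It lay between 7.16 and 9.51 (median 7.95) in spontaneous tumours, between 6.16 and 10.19 (median 7.91) in cobalt tumours and between 11.58 and 11.86 (median 11.69) in control lungs. Every tumour lay below every control, and cobalt tumour 6 and spontaneous tumour 4 were the highest of their groups. The log2 difference was -3.61 ± 0.50 in spontaneous tumours (12.2-fold lower, adjusted p = 2.95e-05) and -3.65 ± 0.50 in cobalt tumours (12.5-fold lower, adjusted p = 2.77e-05), or -4.08 without cobalt tumour 6.

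Dynein heavy chains (Dnah) are the motors of the arms. Of 10, 9 fell in each comparison, with a median log2 difference of -1.48 in spontaneous and -1.14 in cobalt tumours. Dnah6, an inner arm chain, lay between 5.70 and 7.33 (median 6.5) in spontaneous tumours, between 5.82 and 7.91 (median 6.20) in cobalt tumours and between 9.35 and 9.70 (median 9.37) in control lungs. All tumours lay well below all controls, and cobalt tumour 6 was again the highest tumour. Its log2 differences were -2.95 ± 0.31 (adjusted p = 2.29e-06) in spontaneous and -3.03 ± 0.31 (adjusted p = 1.84e-06) in cobalt tumours.

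The outer arm chains Dnah5, Dnah9 and Dnah11 fell by less. Dnah11 lay between 6.36 and 6.91 (median 6.72) in spontaneous tumours, between 6.5 and 7.37 (median 6.62) in cobalt tumours and between 7.69 and 8.18 (median 7.81) in control lungs, with no overlap. Its log2 differences were -1.2 ± 0.14 and -1.15 ± 0.14 in spontaneous and cobalt tumours (adjusted p = 5.79e-06 and 8.58e-06), beside -1.59 and -1.41 for Dnah5 and -1.51 and -1.27 for Dnah9. Dnah9's other probe set, at 4.11 to 4.37 in all arrays, gave 0.07 and 0.12, and the other sets of Dnah1 and Dnah2 gave between -0.30 and -0.19. The inner arm chains Dnah1, Dnah7a and Dnah12 fell too, with log2 differences from -2.63 to -1.02 in spontaneous and from -2.48 to -0.97 in cobalt tumours. Dnah2, also of an inner arm, was at -1.57 in spontaneous tumours (adjusted p = 0.00012) and -0.70 in cobalt tumours (adjusted p = 0.0395), the second missing the threshold without cobalt tumour 1, 2, 3 or 5 or without control 1, 2, 3, 4 or 6 (adjusted p 0.0503 to 0.104 over the settings that lost it).

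Dnah17, known in mice from the sperm tail, did not pass. It lay between 5.51 and 5.84 (median 5.73) in spontaneous tumours, between 5.6 and 6.03 (median 5.73) in cobalt tumours and between 5.59 and 6.13 (median 5.78) in control lungs, so the ranges overlapped, with log2 differences of -0.14 and -0.07. Dnah8, another chain known from the mouse sperm tail, fell (log2 differences -1.01 and -1.03), but its other probe set gave -0.02 and -0.00.

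Dynein arms are put together in the cytoplasm by assembly factors, of which 5 Dnaaf genes were measured. Dnaaf1 and Dnaaf4 fell in both comparisons, and Dnaaf2, Dnaaf5 and Dnaaf6 passed in neither. Dnaaf1 lay between 4.88 and 5.54 (median 5.06) in spontaneous tumours, between 4.72 and 5.96 (median 5.20) in cobalt tumours and between 6.63 and 7.28 (median 7.09) in control lungs. The groups were apart, with log2 differences of -1.91 ± 0.18 and -1.83 ± 0.18 in spontaneous and cobalt tumours (adjusted p = 6.15e-07 and 1.08e-06). The other probe sets of Dnaaf1 and Dnaaf4 gave between -0.16 and -0.07.

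Dnaaf2, a co-chaperone for dynein folding, lay between 6.70 and 7.51 (median 7.05) in spontaneous tumours, between 6.54 and 7.42 (median 6.87) in cobalt tumours and between 6.59 and 7.21 (median 7.04) in control lungs. Dnaaf5, also an assembly factor, lay between 7.94 and 8.49, between 7.83 and 8.40 and between 7.95 and 8.37 in the same order of groups. The ranges overlapped for both genes, with log2 differences between -0.08 and 0.07. Dnaaf6 was between 3.68 and 4.02 in every array, near the lowest deposited value of 3.34. Of 10 assembly factors under other names, 5 fell and 1 rose in spontaneous tumours and 6 fell in cobalt tumours, beside 18.2% and 19.3% of all genes lower. The falls were led by Zmynd10 (log2 difference -1.77 and -1.70) and Lrrc6 (-1.53 and -1.41). Wdr92 was the gene that rose in spontaneous tumours (0.26).

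Radial spoke proteins (Rsph) link the doublets to the central pair, and 5 of 6 fell in each comparison, with medians of -1.35 in spontaneous and -1.25 in cobalt tumours. Rsph4a, a spoke head protein, lay between 4.19 and 6.24 (median 5.07) in spontaneous tumours, between 4.36 and 7.64 (median 4.80) in cobalt tumours and between 8.08 and 8.45 (median 8.39) in control lungs. No tumour reached the controls, but cobalt tumour 6 at 7.64 was far above the other cobalt tumours, which ended at 4.96. The log2 differences were -3.21 ± 0.46 (9.26-fold lower, adjusted p = 3.94e-05) and -3.10 ± 0.46 (8.56-fold lower, adjusted p = 5.65e-05), the second being -3.58 without cobalt tumour 6.

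Rsph1, a further spoke head protein, lay between 6.39 and 8.10 (median 6.99) in spontaneous tumours, between 6.54 and 8.72 (median 7.0) in cobalt tumours and between 9.31 and 9.64 (median 9.47) in control lungs. Its log2 differences were -2.38 ± 0.31 and -2.23 ± 0.31 (adjusted p = 1.82e-05 and 3.47e-05). Rsph9, of the spoke head too, fell by less, with -1.11 ± 0.21 and -0.87 ± 0.21 (adjusted p = 0.000548 and 0.00354): it lay between 6.88 and 8.11 in spontaneous tumours, between 7.61 and 8.51 in cobalt tumours and between 8.54 and 9.10 in control lungs. Rsph3a, of the spoke stalk, and Rsph14 fell as well, with log2 differences of -1.40 and -1.38 for Rsph3a and of -1.29 and -1.12 for Rsph14; the other probe set of Rsph3a gave -0.05 and -0.02. Rsph6a, known in mice from the sperm tail, overlapped the controls and did not pass, with -0.19 in spontaneous tumours and -0.28 in cobalt tumours (adjusted p = 0.0726); the cobalt value passed under 5 other settings, among them without control 6 (-0.33, adjusted p = 0.0407) and without spontaneous tumour 4 (adjusted p = 0.0442).

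Tektins (Tekt) are filaments inside the doublets. Tekt1, Tekt2 and Tekt4 fell in both comparisons, while Tekt3 and Tekt5, known in mice from sperm, passed in neither. Tekt2 lay between 4.90 and 5.34 (median 5.15) in spontaneous tumours, between 5.03 and 6.34 (median 5.27) in cobalt tumours and between 6.91 and 7.76 (median 7.48) in control lungs. It had the smallest adjusted p of the members in both comparisons, with log2 differences of -2.28 ± 0.18 (adjusted p = 1.38e-07) and -2.03 ± 0.18 (adjusted p = 5.14e-07). Tekt4 lay between 5.74 and 6.46, between 5.89 and 7.10 and between 8.14 and 8.43 in spontaneous tumours, cobalt tumours and control lungs, with log2 differences of -2.17 and -1.88.

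Tekt1 lay between 5.10 and 5.97 (median 5.30) in spontaneous tumours, between 5.03 and 7.10 (median 5.38) in cobalt tumours and between 7.02 and 7.5 (median 7.38) in control lungs. Cobalt tumour 6, at 7.10, was inside the control range, and the other cobalt tumours reached 5.42. The log2 differences were -1.94 and -1.74 (adjusted p = 2.39e-05 and 6.52e-05). Tekt3 lay between 5.00 and 5.4 in spontaneous tumours, between 4.84 and 5.49 in cobalt tumours and between 4.98 and 5.80 in control lungs, so the ranges overlapped (log2 differences -0.10 and -0.08). Tekt5 stood at -0.32 (adjusted p = 0.0639) and -0.00, the first passing under 5 other settings, among them without control 1, cobalt tumour 4 or cobalt tumour 6 (adjusted p 0.0231 to 0.0484 over those 5). Of 9 germ cell genes of the testis, such as the protamine Prm1, none passed in either comparison, beside 34.6% and 34.0% of all genes called. The list was dim, with a mean level of 5.53 against 7.38 over all genes, so nothing is read from its count.

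**Figure D3:**
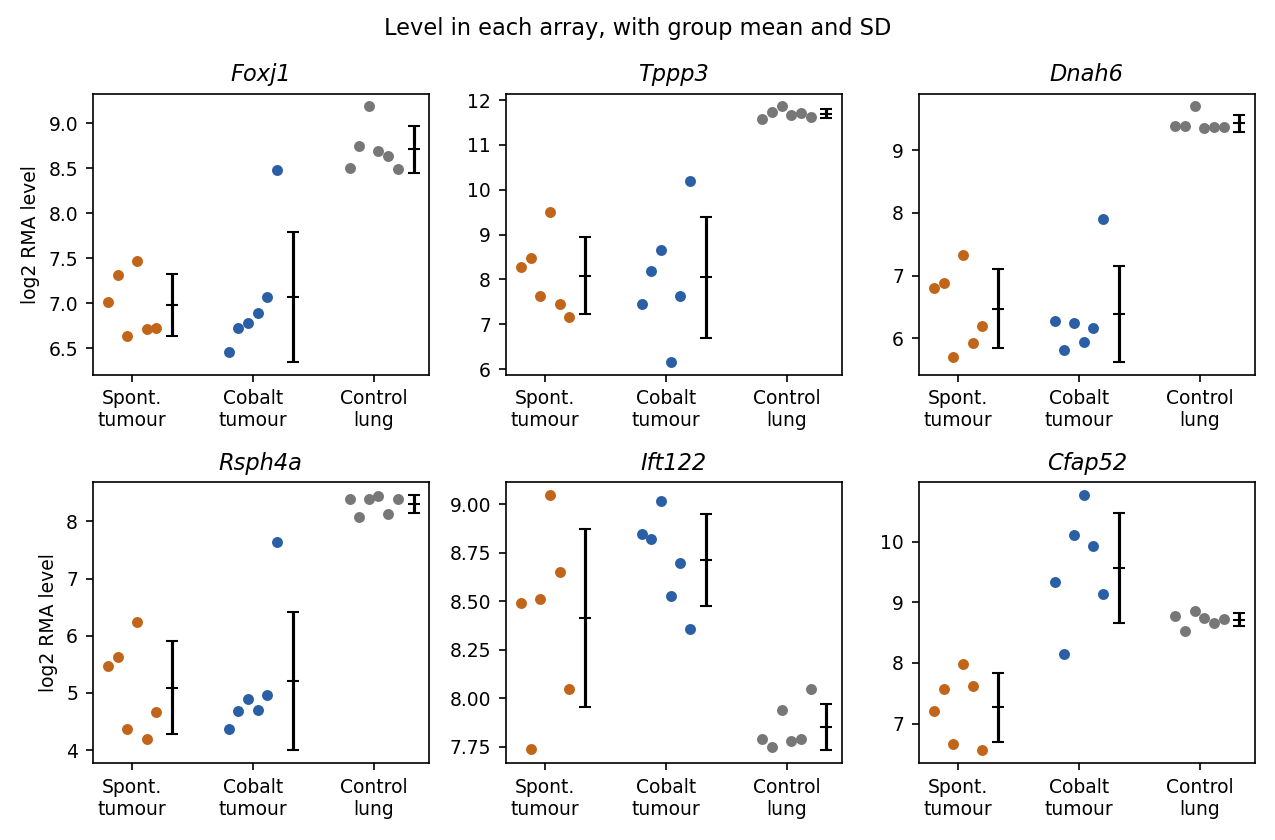
Log2 RMA level (y axis, not starting at 0) of 6 members in each array, with the mean and SD of the 6 arrays beside each group. Foxj1, Tppp3, Dnah6 and Rsph4a lie below the controls in all tumours, with cobalt tumour 6 the highest cobalt tumour (Tppp3 10.19, Rsph4a 7.64), Ift122 lies above in most tumours, and the Cfap52 tumour groups do not overlap.

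The Cfap genes (cilia and flagella associated proteins) are a naming series of mixed function, and of 25, 17 fell in each comparison, with medians of -0.87 in spontaneous and -0.83 in cobalt tumours. Cfap161, a protein inside the doublets, fell most. It lay between 4.62 and 5.43 (median 4.67) in spontaneous tumours, between 4.52 and 6.97 (median 4.79) in cobalt tumours and between 8.18 and 8.39 (median 8.27) in control lungs, so all tumours were far below. The log2 differences were -3.37 ± 0.32 (10.3-fold lower, adjusted p = 7.42e-07) and -3.13 ± 0.32 (8.74-fold lower, adjusted p = 1.67e-06).

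The central apparatus gene Cfap54 followed with -2.62 and -2.41 (-0.21 and -0.13 by its other probe set), and Cfap206, Cfap65 and Cfap126 lay between -2.28 and -1.89 in both comparisons. For Cfap54, Cfap126 and Cfap299 cobalt tumour 6 lay inside the control range, at 8.3, 9.55 and 6.05, and the other cobalt tumours lay below all controls. Cfap45 and Cfap53, inside the doublets, fell too, with log2 differences of -1.56 and -1.44 for Cfap45 and of -0.78 and -0.84 for Cfap53. Cfap43, Cfap70, Cfap157 and Cfap221 fell, with log2 differences between -1.55 and -0.83, though the other set of Cfap70 gave -0.29 and -0.18. For Cfap300, Cfap61 and Cfap298 the probe sets used gave log2 differences between -0.69 and -0.30. Another probe set of Cfap61 gave -1.74 and -1.68, so its size depends on the set. The other probe sets of Cfap298 gave between -0.27 and -0.08 in spontaneous and between -0.18 and -0.01 in cobalt tumours. The spontaneous calls of Cfap300 and Cfap61 were lost in the arrays with high Xist (-0.51 with adjusted p = 0.122, and -0.33 with adjusted p = 0.0666). Only spontaneous tumours 4 and 6 are among those arrays. The call of Cfap298 in spontaneous tumours was at the threshold (adjusted p = 0.0489), missing it without any of the controls except control 2, without any spontaneous tumour except 6, and without cobalt tumour 2, 4 or 5 (adjusted p 0.0516 to 0.531 over 16 settings that lost it).

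Cfap69, a central apparatus protein, showed a single tumour against the trend. It was at 8.24 in spontaneous tumour 2, above all controls (6.99 to 7.24), while the other spontaneous tumours lay at 4.57 to 6.05 and the cobalt tumours at 4.57 to 7.03. The fall passed in both comparisons (-1.34 and -1.69, adjusted p = 0.0393 and 0.0113), the first missing the threshold without any of the controls or without spontaneous tumour 1, 3, 4 or 5 (adjusted p 0.0548 to 0.0938 over the settings that lost it).

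Several Cfap genes did not pass in either comparison. Cfap20, a protein of the doublet junction that primary cilia use too, lay between 9.09 and 9.94 (median 9.57) in spontaneous tumours, between 8.72 and 9.35 (median 9.19) in cobalt tumours and between 9.05 and 9.30 (median 9.27) in control lungs, with log2 differences of 0.32 (adjusted p = 0.0737) and -0.12. Without spontaneous tumour 2 or 6 the first was 0.37 or 0.42 and passed (adjusted p = 0.0485 or 0.0144). Cfap97 lay between 8.63 and 9.47, between 9.14 and 9.66 and between 8.85 and 9.19 in spontaneous tumours, cobalt tumours and control lungs, with 0.15 and 0.24. Its other probe sets gave 0.47 and 0.43 in spontaneous and 0.30 and 0.20 in cobalt tumours. In the exact permutation test its cobalt value passed as higher (adjusted p = 0.0297). Cfap36 and Cfap410 overlapped the controls as well, at between -0.03 and 0.20. Cfap47 and Cfap97d1 never rose above 4.49 in any array.

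The result for Cfap57 depends on the probe set. The probe set used gave 0.03 in spontaneous and 0.26 in cobalt tumours (adjusted p = 0.859 and 0.0657), whereas its other probe set, at 6.58 to 6.78 in control lungs, gave -1.62 and -1.51. The mean of both sets was lower in both comparisons (-0.80 and -0.62, adjusted p = 6.38e-07 and 7.25e-06), and without cobalt tumour 6, cobalt tumour 2 or control 5 the set used passed as higher in cobalt tumours (0.32 with adjusted p = 0.021 for the first of these), so no direction is given for this gene. Cfap20dc passed as lower in cobalt tumours (-0.52, adjusted p = 0.00654, against -0.31 and 0.0918 in spontaneous tumours); the difference between tumour groups was -0.21 and did not pass (adjusted p = 0.595), and its other 2 probe sets gave between -0.08 and 0.02. Without spontaneous tumour 5 or 6 it passed in spontaneous tumours too (-0.39 and -0.40, adjusted p = 0.0338 and 0.0292), and with the mean of its probe sets the cobalt call was lost (-0.20, adjusted p = 0.0764).

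The IFT genes build the transport trains that both motile and primary cilia need. Of 14, 3 fell and 1 rose in spontaneous tumours and 6 fell and 1 rose in cobalt tumours, with medians of -0.08 and -0.29. Among all genes, 18.2% fell and 16.4% rose in spontaneous tumours and 19.3% fell and 14.7% rose in cobalt tumours. The IFT count called lower was near that share in spontaneous tumours, so nothing is read from it, and above it in cobalt tumours. The other 56 members had medians of -1.17 and -1.0, with 40 and 39 called lower. Ift172, Ift43 and Ift57 fell in both comparisons. Ift172, a large subunit of the outward-moving train (complex B), lay between 7.99 and 8.41 (median 8.20) in spontaneous tumours, between 7.67 and 8.97 (median 7.94) in cobalt tumours and between 8.87 and 9.18 (median 8.97) in control lungs. Only cobalt tumour 6 reached the controls, and the log2 differences were -0.82 ± 0.16 and -0.93 ± 0.16 (adjusted p = 0.000702 and 0.000222).

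Ift43, of the returning train (complex A), lay between 8.65 and 9.43 (median 8.82) in spontaneous tumours, between 8.42 and 9.18 (median 8.72) in cobalt tumours and between 9.62 and 9.78 (median 9.75) in control lungs. The groups were apart, with log2 differences of -0.75 ± 0.15 and -0.97 ± 0.15 (adjusted p = 0.000816 and 8.76e-05). Ift57, whose start region is shown above, stood at -0.68 and -0.56 (adjusted p = 0.00626 and 0.0195), the second at -0.48 and not past the threshold without cobalt tumour 1 (adjusted p = 0.0514); its other probe set gave 0.01 and 0.09. In the arrays with high Xist, which include fewer tumours, neither call of Ift57 held (-0.53 and -0.42, adjusted p = 0.0884 and 0.086). Ift74, Ift22 and Ift88, of complex B, passed in cobalt tumours and not in spontaneous ones, with cobalt log2 differences between -0.68 and -0.27; none of them differed between the tumour groups past the threshold (adjusted p 0.506 to 0.579). In the arrays with high Xist the cobalt calls of Ift22 (-0.29, adjusted p = 0.0918) and Ift74 (-0.50, adjusted p = 0.0542) were lost, that of Ift22 also in the exact permutation test (adjusted p = 0.054). With cyclic loess Ift88 passed in spontaneous tumours as well (-0.22, adjusted p = 0.0329).

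Ift46, of complex B, lay between 9.17 and 9.88 (median 9.44) in spontaneous tumours, between 8.75 and 9.41 (median 9.27) in cobalt tumours and between 9.34 and 9.48 (median 9.38) in control lungs. It passed in neither comparison (0.08 and -0.20), like Ift20, Ift27, Ift52, Ift80, Ift81 and Ift140, whose log2 differences ran from -0.40 to 0.18 by the probe sets used. The other probe sets of Ift27 disagreed in direction, at -0.15 and 0.56 in spontaneous and at -0.51 and 0.34 in cobalt tumours. No direction is given for Ift27, which passed as lower in cobalt tumours in the arrays with high Xist (-0.43, adjusted p = 0.0474).

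Ift122, a complex A subunit, was the member that rose in both comparisons. It lay between 7.74 and 9.05 (median 8.5) in spontaneous tumours, between 8.36 and 9.02 (median 8.76) in cobalt tumours and between 7.75 and 8.05 (median 7.79) in control lungs. All cobalt tumours lay above all controls, where 8.1% of all genes did so, and spontaneous tumour 2 lay just under the lowest control. The log2 difference was 0.57 ± 0.17 in spontaneous tumours (1.48-fold higher, adjusted p = 0.0152) and 0.86 ± 0.17 in cobalt tumours (1.82-fold higher, adjusted p = 0.000708), and its other probe set gave 0.41 and 0.66. An exact permutation test per gene gave an adjusted p of 0.068 for the spontaneous comparison.

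Other genes of the primary cilium and its transport, 43 measured from a list outside the name rule, gave these counts: 14 fell and 1 rose in spontaneous tumours, 19 fell and 1 rose in cobalt tumours, and the medians were -0.22 and -0.26. Among all genes, 18.2% fell and 16.4% rose in spontaneous tumours and 19.3% fell and 14.7% rose in cobalt tumours. The share of this list that fell was larger than that of all genes in each comparison. Traf3ip1, an IFT complex B protein also known as Ift54, fell most in each comparison (-1.52 and -1.66). Ttc30b, a further complex B protein (-0.74 and -1.35), the membrane cargo adaptor Tulp3 (-0.99 and -0.90) and the BBSome subunit Bbs7 (-0.84 and -1.07) fell too. Bbs12, a chaperonin-like protein for that complex, rose (0.81 and 0.77). Of a list of further axoneme genes, 36 of 39 fell in each comparison, with medians of -1.58 and -1.45, among them Tmem212 (-3.37 and -3.59), the dynein light chain Dynlrb2 (-3.16 and -3.76) and the adenylate kinase Ak7 (-3.11 and -2.85).

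Cobalt and spontaneous tumours differed in a single member. Cfap52, a protein inside the doublets, was higher in cobalt tumours, where 0.0824% of all genes were called between the tumour groups, 0.044% higher and 0.0385% lower. In cobalt tumours 1 to 6 it was at 9.33, 8.15, 10.11, 10.77, 9.92 and 9.14, in spontaneous tumours 1 to 6 at 7.21, 7.57, 6.66, 7.98, 7.62 and 6.56, and in control lungs 1 to 6 at 8.78, 8.53, 8.85, 8.74, 8.66 and 8.72. The tumour groups did not overlap, which held for 0.192% of all genes in this direction; cobalt tumour 2 was below the controls, the other cobalt tumours were above them, and all spontaneous tumours were below.

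The log2 difference between cobalt and spontaneous tumours was 2.30 ± 0.34 for Cfap52 (4.93-fold higher, adjusted p = 0.0138). Against control lung it was 0.85 in cobalt tumours (adjusted p = 0.0588) and -1.45 in spontaneous tumours (adjusted p = 0.00277). Its other probe set gave 1.76 between the tumour groups, 0.47 in cobalt and -1.29 in spontaneous tumours against control lung. The call between tumour groups was lost without cobalt tumour 1 (2.35, adjusted p = 0.0573) and when only the 12 tumour arrays were fitted (adjusted p = 0.241). It was also lost in the high-Xist arrays (2.05, adjusted p of 0.699) and with the replicate block (adjusted p of 0.0578). The exact permutation test lost it too (adjusted p = 0.352, from a p of 0.00216 that is the smallest it can give). These settings called almost no gene between the tumour groups. Without cobalt tumour 1, with the 12 arrays and with the replicate block, 1 of 18193 genes was higher and 0 were lower. In the high-Xist arrays and in the permutation test 0 genes were called. The lost calls therefore say little about Cfap52 itself. The cobalt value against control lung passed without cobalt tumour 2 (1.14, adjusted p = 0.0049) or cobalt tumour 6 (0.94, adjusted p = 0.0468).

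Genes on either side of Cfap52 on the chromosome did not share the pattern: Usp43 stood at -0.33 and Stx8 at -0.05 between cobalt and spontaneous tumours, and neither passed (adjusted p = 0.469 and 0.919). Dnah2 had the next largest difference in this direction, 0.87 ± 0.25, which did not pass (adjusted p = 0.189). It was at 6.20, 5.62, 6.43, 7.35, 5.38 and 6.73 in cobalt tumours 1 to 6 and between 4.97 and 5.81 in spontaneous tumours, so the groups overlapped. Over the 70 members the median difference between cobalt and spontaneous tumours was 0.04, beside -0.00 over all genes.

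The mean over the 21 Dnah, Rsph and Tekt genes ran from -1.71 to -1.2 in spontaneous tumours and from -1.54 to -1.40 in cobalt tumours 1 to 5, and was -0.56 in cobalt tumour 6, against -0.10 to 0.15 in control lungs. Between 47 and 53 of the 70 members lay below all controls in every tumour except cobalt tumour 6, where 36 did. The share of all genes below all controls in a single array was not counted. These numbers therefore only set the tumours beside each other. Family counts in the cobalt comparison were the same without cobalt tumour 6 except that 2 Cfap genes (Cfap52 and Cfap57) passed as higher, and the family medians then were -1.23 for Dnah, -1.41 for Rsph, -2.02 for Tekt, -0.90 for Cfap and -0.30 for Ift.

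Markers of several cell types of normal lung moved in the same arrays. All 19 ciliated cell genes outside the name rule, such as Fam183b and Ccdc153, fell in each comparison, and their mean was -0.59 in cobalt tumour 6 and between -3.28 and -1.73 in the other tumours. Many of these genes, among them Dynlrb2, Tmem212 and Ak7, also belong to the list of further axoneme genes above. The counts of the 2 lists are therefore not separate evidence. The levels of the 19 genes summed on the linear scale ran, as log2, from 11.16 to 12.83 in spontaneous tumours, from 10.60 to 14.34 in cobalt tumours and from 14.64 to 14.89 in control lungs. No marker is at 0 on the RMA scale.

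Of 11 club cell markers, 5 fell and 1 rose in spontaneous tumours and 9 fell and 1 rose in cobalt tumours, with log2 sums of 14.64 to 16.11, 11.94 to 16.63 and 16.79 to 16.91 in spontaneous tumours, cobalt tumours and control lungs. The club cell mean of cobalt tumour 6 was 0.14, at the level of the controls. Of 10 alveolar type 1 markers, 8 fell in each comparison (sums 14.12 to 15.18, 14.43 to 15.92 and 16.04 to 16.30 in that order of groups), and their mean in cobalt tumour 6 was -0.17. All 10 endothelial markers fell in each (sums 11.19 to 13.05, 10.71 to 14.07 and 15.07 to 15.45), with -1.17 in cobalt tumour 6 and -2.15 in spontaneous tumour 4, the next highest. Smooth muscle markers fell too, 7 of 7 in each comparison (sums 10.95 to 12.31, 11.24 to 12.16 and 13.21 to 13.97). Of 9 alveolar type 2 markers, 3 rose in spontaneous tumours, and 5 rose and 1 fell in cobalt tumours. Beside these counts, 18.2% of all genes fell and 16.4% rose in spontaneous tumours, and 19.3% fell and 14.7% rose in cobalt tumours. The part of each cell type in the members' differences was not tested.

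**Figure D4:**
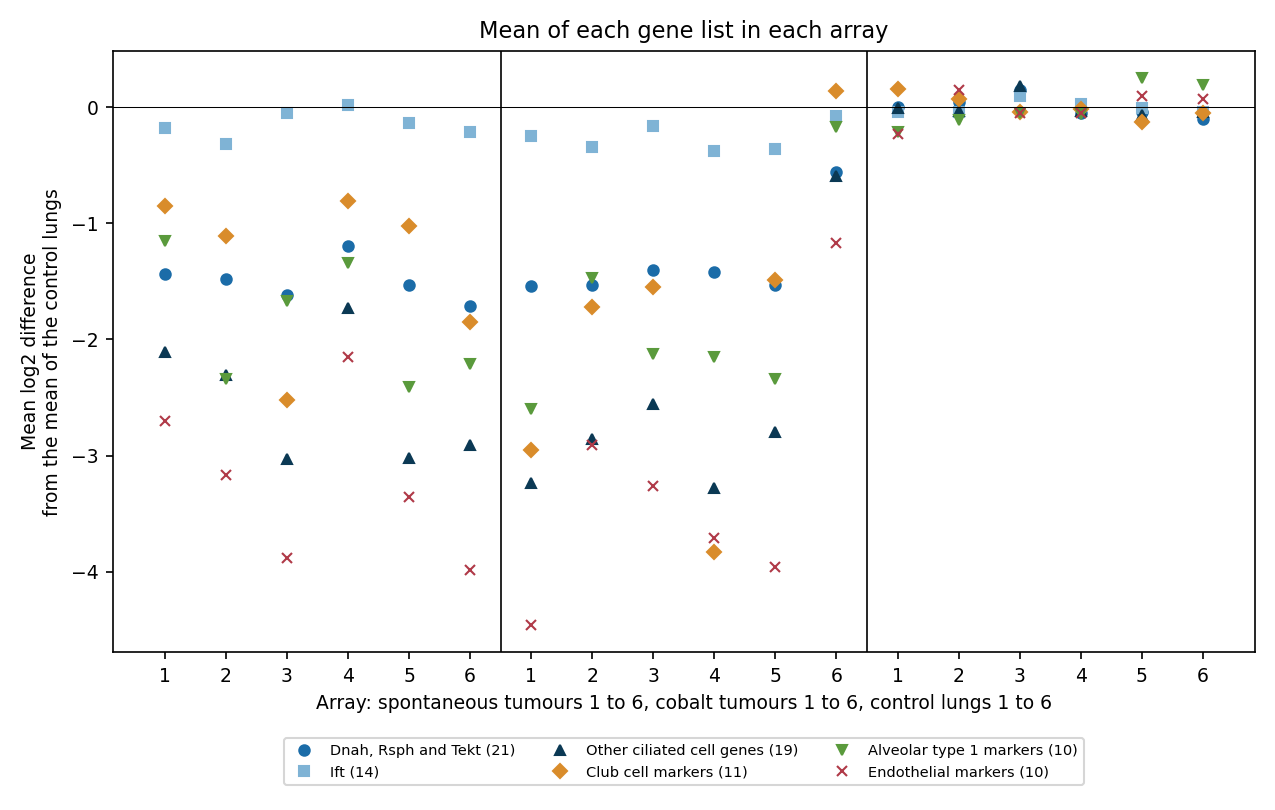
Mean log2 difference from the control lungs (y axis) of 6 gene lists in each array (x axis), with the number of genes in brackets. In cobalt tumour 6 all lists lie closer to 0 than in the other cobalt tumours (Dnah, Rsph and Tekt -0.56, endothelial -1.17, club 0.14). The Ift means run from -0.32 to 0.02 in spontaneous and from -0.38 to -0.08 in cobalt tumours, against -0.04 to 0.10 in control lungs.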

How the data were processed

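RNA of 18 samples was measured on a 1-colour Affymetrix mouse array. The deposited values are on a log2 scale and came from RMA per the submitters' processing notes; settings of that step were not found in the labels. RMA makes the distributions of the arrays alike, which can hide a shift of all genes, and compresses differences of dim probe sets. The values were used as deposited. Of 45101 probe sets, 34945 had a single symbol in the platform annotation and gave 18193 genes. Groups were taken from titles, sources and group labels. Differences were fitted with limma 3.58.1 in R 4.3.3 (lmFit and eBayes, group only, all 18 arrays, two-sided, Benjamini-Hochberg over 18193 genes, threshold 0.05), and the fit was tested on simulated data. The series' design names ORIOGEN for setting either tumour group against controls; limma took its place, and the comparison between tumours was added. The members, lists and named genes were chosen with earlier results of these data known. Values per group were given for the regulators, Tppp3, and in each family the 2 members with the highest mean, the largest fall and the largest rise or smallest fall, and for members called higher or between tumours; other members are named with differences. Alternatives were cyclic loess, a filter on the 6064 dimmest genes, averaging a gene's probe sets, trend and robust options, only the 12 arrays compared, the replicate number as a block, arrays with Xist above 10, each array left out, and an exact permutation test over 924 assignments. Leaving out arrays for the counts of members below all controls, and the other probe set of Cfap52, were added after seeing the data. Promoter sequences are RefSeq's, of build GRCm38.p6. All value columns were used.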

Additional observations from a re-analysis of the deposited data

Results flagged for a closer look

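In 24 of 102 groups tested (27 members and 7 family or overall means, in each of the 3 groups), the highest or lowest array stood far from the other 5. Chance gives about 1 in 20 for a single group. The genes share the same arrays and the means include the members, so the groups are not independent and the count is not a test. Cobalt tumour 6 accounts for most of the 24, each time nearest to control lung. Its levels were 6.97 for Cfap161 (4.52 to 5.24 in the other cobalt tumours), 7.37 for Dnah11 (6.5 to 6.80), 7.91 for Dnah6 (5.82 to 6.27) and 8.48 for Foxj1 (6.46 to 7.07). It was at 8.97 for Ift172 (7.67 to 8.0), 6.91 for Rfx2 (6.12 to 6.32), 8.72 for Rsph1 (6.54 to 7.32), 7.64 for Rsph4a (4.36 to 4.96) and 8.51 for Rsph9 (7.61 to 7.95). Tekt1 stood at 7.10 there (5.03 to 5.42) and Tekt2 at 6.34 (5.03 to 5.43).

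The mean log2 difference from control lung in cobalt tumour 6 was -0.34 over all members (-1.06 to -0.87 in the others), -0.58 over Dnah (-1.62 to -1.33), -0.30 over Cfap (-1.10 to -0.84), -0.45 over Rsph (-1.82 to -1.60) and -0.65 over Tekt (-1.36 to -1.12).

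Cobalt tumour 3 had the highest Cfap97, 9.66 (9.14 to 9.33 in the other cobalt tumours). Among control lungs, control 3 was the highest for Dnah6 at 9.70 (9.35 to 9.39), for Foxj1 at 9.19 (8.49 to 8.75) and for the mean over all members at 0.13 (-0.06 to 0.01). Control 2 was the lowest for Dnaaf2 at 6.59 (6.98 to 7.21) and the highest for Tekt3 at 5.80 (4.98 to 5.26). Control 1 was the lowest for Cfap20 at 9.05 (9.27 to 9.30), and control 6, whose description names a tumour, the lowest for Tekt2 at 6.91 (7.46 to 7.76).

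Cfap52 differed between the tumour groups by 2.30 on the log2 scale (adjusted p = 0.0138), with the limits given above.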

How the results depend on the processing

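Over all members, comparisons and settings, 5306 values kept direction and side of the threshold, 54 lost the call, 26 gained it and 2 turned round. The 2 are Cfap57 with the mean of all probe sets (-0.80 in spontaneous and -0.62 in cobalt tumours). Without the 6064 dimmest genes, 46 members remain. Of these, 26 fell in spontaneous and 28 in cobalt tumours, where 21.1% and 23.5% of all remaining genes were lower. In cobalt tumours 2 of the members rose, where 21.2% of the remaining genes were higher. The changed counts follow from the smaller number tested except for Cfap52. Members called higher in spontaneous tumours numbered 2 with the mean of all probe sets, where 17.3% of all genes were higher. In the exact permutation test 0 members were higher and 43 lower in spontaneous tumours, beside 16.2% and 18.6% of all genes. For cobalt tumours that test gave 2 higher and 44 lower, beside 15.5% and 19.7% of all genes. Between tumour groups 0 members were called higher, in place of Cfap52, with only the 12 arrays compared and with the replicate block. Of all 18193 genes, 1 was called in each of these settings. In the arrays with Xist above 10 and in the exact permutation test 0 members and 0 of all genes were called. With each array left out in turn, spontaneous tumours had 1 to 2 members higher, 41 to 44 lower and medians of -0.88 to -0.80. Cobalt tumours had 1 to 3 higher, 43 to 46 lower and medians of -0.86 to -0.74. The cobalt against spontaneous comparison had 0 to 1 higher, 0 to 0 lower and medians of -0.06 to 0.08. Over these fits 16.4% to 18.9% of all genes were lower in spontaneous and 17.5% to 20.6% in cobalt tumours. Between 14.4% and 16.9% were higher in spontaneous and between 13.1% and 16.6% in cobalt tumours. Between the tumour groups 0.0055% to 0.198% of all genes were higher. Replicate numbers did not pair the arrays (2 of 18 same-number correlations over 0.1, range -0.338 to 0.195). With the replicate block 42 members fell in spontaneous and 45 in cobalt tumours, beside 16.8% and 18.2% of all genes. The adjusted p of Cfap52 between tumours was then 0.0578. Signal over background is unknown for these values, so small differences of dim genes such as Dnaaf6, Cfap47 and Cfap97d1 could not be seen.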

Other observations

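Of 17 genes of the programme that makes many centrioles per cell, 5 fell and 2 rose in spontaneous tumours and 4 fell and 1 rose in cobalt tumours, with medians of -0.18 and -0.11. Of all genes, 18.2% fell and 16.4% rose in spontaneous tumours and 19.3% fell and 14.7% rose in cobalt tumours, so nothing is read from the counts of this list or of the airway, macrophage and red cell lists below. Myb, a transcription factor that acts early in that programme, fell most, with log2 differences of -3.30 and -3.31 (adjusted p = 6.35e-05 and 6.38e-05). Trp73, a p53 family member that acts upstream of Foxj1, fell (-0.63 and -0.58), and so did Deup1, a scaffold of centriole amplification (-0.36 and -0.54), and Cep63 (-0.43 and -0.51). Tfdp1, a partner of E2F factors, rose in both (0.78 and 0.50). Plk4, the kinase that starts centriole duplication also in dividing cells, rose in spontaneous tumours (0.87, adjusted p = 0.00813) and stood at 0.43 in cobalt tumours (adjusted p = 0.178). All 6 genes of a list for cycling cells were higher in spontaneous tumours and none passed in cobalt tumours; none of the 6 passed between cobalt and spontaneous tumours (adjusted p 0.189 to 0.413), and their part in the values of Plk4 was not tested.

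Of the other airway lists, 3 of 7 goblet cell genes rose in spontaneous and 2 in cobalt tumours, 1 of 7 basal cell genes fell in spontaneous tumours, and 1 of 5 neuroendocrine genes fell in each. Of 8 macrophage genes, 4 rose in spontaneous tumours, and 1 rose and 1 fell in cobalt tumours; of 3 red cell genes 1 fell in each.

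Cobalt tumour 4 had the lowest Tppp3 (6.16) and Rfx3 (5.06) of all arrays and the highest Cfap52 (10.77) and Tekt5 (6.40).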
